A study of Macaca mulatta with 2 samples.

Results

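CRYAB and 6 further molecular chaperone genes, HSPB1, DNAJB1, BAG3, HSPE1, HSPD1 and HSPA8, were followed through the cell types of the macaque trabecular meshwork, the tissue that drains aqueous humour from the front of the eye. The 7 genes were taken by name from the 24037 features that both deposited matrices list, to set CRYAB beside chaperones of the heat shock response. The genes were chosen by earlier results on the same data, their ratios between the libraries in meshwork cells, so those ratios are a description and no independent support. The features are ENSMMUG00000022133 (CRYAB), ENSMMUG00000004124 (HSPB1), ENSMMUG00000017906 (DNAJB1), ENSMMUG00000000798 (BAG3), ENSMMUG00000016547 (HSPE1), ENSMMUG00000010489 (HSPD1) and ENSMMUG00000004696 (HSPA8).

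Chaperones hold unfolded proteins in solution, refold them or pass them on for degradation. CRYAB (alpha-B crystallin) and HSPB1 (HSP27) are small heat shock proteins that bind unfolding clients without using ATP, and CRYAB also binds intermediate filaments of muscle and lens. HSPA8 (HSC70) is the constitutive ATP-driven chaperone of the cytosol, DNAJB1 is a J-domain partner that hands clients to HSP70 proteins, and BAG3 releases clients from HSP70 proteins and links them to autophagy. HSPD1 (HSP60) and HSPE1 (HSP10) build the folding chamber of mitochondria. Stress turns many of these genes on through the transcription factor HSF1. Trabecular meshwork cells are known to make much CRYAB and to raise it under stress. In the RefSeq annotation of assembly T2T-MMU8v2.0, HSPD1 and HSPE1 are neighbours on chromosome 12, and HSPB2 is next to CRYAB on chromosome 14. HSPB2 was not analysed here.

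The material was meshwork tissue of rhesus macaques (Macaca mulatta), with 1 single-cell library labelled glaucoma and 1 labelled normal under the heading genotype. The series describes the affected monkeys as having spontaneous primary open-angle glaucoma and the others as healthy. Both tissues were digested with warm collagenase and read with a droplet-based 3' kit, and no treatment is named. The labels give no number of animals or eyes per library and no age. With 1 library per group there was no test between the groups, and animal, dissection and day cannot be told apart from diagnosis. All intervals, given in brackets at 95%, cover counting error only.

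The glaucoma library held 10624 cell barcodes and 38765808 unique molecular identifiers (UMIs, counts of captured RNA molecules), and the normal library held 7028 barcodes and 25042621 UMIs. After filters 8301 and 5364 cells were kept, with medians of 2745 and 2699 UMIs, and 17 barcodes occurred in both libraries. Cells fell into 27 clusters, and 9 cell classes had at least 50 cells in each library. Each class is called "like" a type because it was named from markers only. Trabecular meshwork-like cells numbered 1781 and 805, and 12 of 12 meshwork markers were above 0 in both libraries. In them MYOC, the gene of the outflow protein myocilin, stood at 24533 UMIs per 1e+06 UMIs (CPM) in the glaucoma and 32287 CPM in the normal library. Median depth in this class was 5566 and 7239 UMIs, and mitochondrial UMIs were 3.71% and 1.55%.

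CRYAB was a gene of a few cell types. Its level was highest in myelinating Schwann cell-like cells, the glia that wrap nerve fibres, at 6509 CPM [6263, 6763] in the glaucoma and 6846 CPM [6626, 7072] in the normal library. Pairs of values below are given in that order. Trabecular meshwork-like cells came next in both libraries, at 4868 CPM [4827, 4909] and 2026 CPM [1990.3, 2062]. Non-myelinating Schwann cell-like cells followed at 1451 and 1238 CPM, and muscle-like cells at 907 and 468 CPM. These 4 classes held the same order in both libraries, and no interval among them overlapped its neighbour. Pericyte-like cells (219 and 156 CPM) and stromal fibroblast-like cells (181 and 179 CPM) were next, and their intervals overlapped each other in both libraries. T or NK cell-like cells (99.6 and 37.5 CPM), vascular endothelium-like cells (90.1 and 15.7 CPM) and macrophage-like cells (69.4 and 9.97 CPM) were lowest, in that order in both libraries, again with overlapping intervals between neighbours. Outside the classes compared, melanocyte-like cells (88 and 16 cells) held CRYAB at 2123 and 1774 CPM. Surface epithelium-like cells (12 normal cells) held 3526 CPM, and unnamed cells (727 and 180) held 772 and 1359 CPM. Levels were 144 and 89.5 CPM in lymphatic-type endothelium-like cells (550 and 33 cells). They were 47.1 and 18.1 CPM in B or plasma cell-like cells (20 and 10 cells).

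In the 3 lowest classes the CRYAB level was a small percentage of that in meshwork-like cells, and so was that of MYOC, which endothelium and immune cells are not known to make. In macrophage-like cells CRYAB stood at 1.43% of its meshwork level and MYOC at 1.28% in the glaucoma library, against 0.492% and 0.313% in the normal library. In vascular endothelium-like cells the 2 genes stood at 1.85% and 1.12% in the glaucoma library and at 0.775% and 0.567% in the normal library. In T or NK cell-like cells they stood at 2.05% and 2.25%, and at 1.85% and 0.566%. MYOC UMIs were found in 49.1% and 37.5% of macrophage-like cells, and CRYAB UMIs in 18.7% and 4.61%, at median depths of 4096 and 4303.5 UMIs. How much of the CRYAB in these 3 classes is free RNA was not tested. Both Schwann cell-like classes had far more CRYAB than MYOC by this measure. In the myelinating class CRYAB was at 134% and 338% of its meshwork level, where MYOC was at 2.83% and 0.44%, and in the non-myelinating class at 29.8% and 61.1%, where MYOC was at 2.12% and 0.942%. In muscle-like cells CRYAB was at 18.6% and 23.1%, against 14.9% and 6.26% for MYOC. Stromal fibroblast-like cells had less CRYAB (3.71% and 8.81% of the meshwork level) than MYOC (22.7% and 21.4%).

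HSPB1, the other small heat shock protein gene, had another distribution. It was highest in muscle-like cells, at 1609 and 1351 CPM in the glaucoma and normal libraries. It was low in myelinating Schwann cell-like cells (74.2 and 28.1 CPM) and macrophage-like cells (36.4 and 64.1 CPM). The lowest and highest classes differed 44.2-fold and 48.1-fold. In the normal library myelinating Schwann cell-like cells were thus the highest class for CRYAB and, with an interval that overlapped T or NK cell-like cells, the lowest for HSPB1.

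DNAJB1 was highest in meshwork-like cells in both libraries, at 308 CPM [298, 318] and 1524 CPM [1493, 1555]. In the glaucoma library T or NK cell-like cells (307 CPM) overlapped it, while in the normal library the next class, again T or NK cell-like cells, was at 721 CPM. Its spread over classes was 3.87-fold in the glaucoma library and 10.4-fold in the normal library. BAG3 was also highest in meshwork-like cells of the normal library (341 CPM), but in the glaucoma library the 4 highest classes, which included meshwork-like cells at 62.4 CPM, lay between 61.7 and 66.4 CPM with overlapping intervals. T or NK cell-like cells held 3 and 1 BAG3 UMIs in all.

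The mitochondrial pair and HSPA8 were present in every class at similar levels. Between the highest and the lowest class HSPE1 differed 1.77-fold in the glaucoma library and 1.98-fold in the normal library, and HSPA8 2.2-fold and 2.52-fold, with HSPD1 in the same range. HSPD1 was highest in meshwork-like cells in both libraries (262 and 342 CPM). HSPA8 was highest in T or NK cell-like cells of the glaucoma library (1000.1 CPM) and in meshwork-like cells of the normal library (1064 CPM). HSPD1, HSPE1 and HSPA8 have processed copies in primate genomes, and their values are uncertain where counting could split reads among copies. Levels are compared here within a gene, because the 3' counts are not per length.

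**Figure D1:**
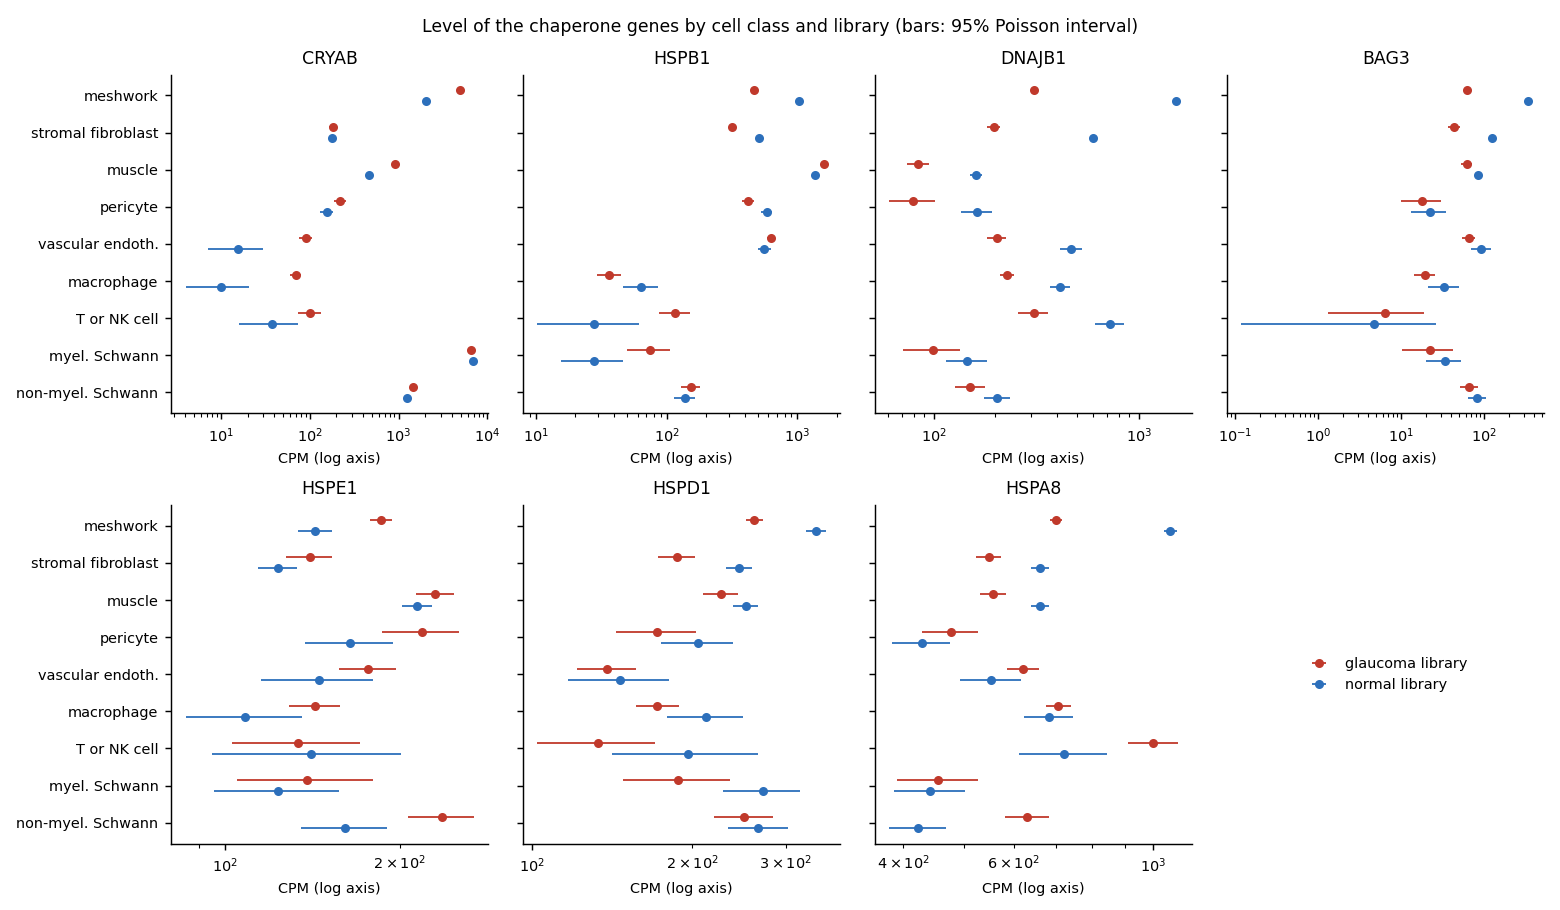
Level of each of the 7 genes (horizontal axis, CPM on a log scale that differs between panels) in 9 cell classes (vertical axis) for the glaucoma library (red) and the normal library (blue). Points are sums over the cells of a class and bars are 95% Poisson intervals. CRYAB runs from 9.97 to 6846 CPM, whereas HSPE1, HSPD1 and HSPA8 stay within 2.52-fold in each library.

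In trabecular meshwork-like cells CRYAB and the other small heat shock protein gene lay on opposite sides. The call of higher or lower below asks for at least 100 UMIs, a difference of at least 2-fold in CPM and an interval of the ratio that excludes 1. CRYAB stood at 4868 and 2026 CPM, a log2 ratio of the glaucoma over the normal library of 1.26 [1.24, 1.29], and was called higher. HSPB1 stood at 466 and 1033 CPM, a log2 ratio of -1.15 [-1.20, -1.10], and was called lower. DNAJB1, at 308 and 1524 CPM, had a log2 ratio of -2.31 [-2.36, -2.25].

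BAG3, at 62.4 and 341 CPM, had the lowest log2 ratio of the 7, -2.45 [-2.58, -2.33]. In all, 1 of 7 genes was called higher, where 6.01% of the 8233 genes measured in this class were, and 3 of 7 lower, where 5.73% were. These are the values that chose the genes, so nothing is read from the difference between those shares. The other 3 genes lay between the limits. HSPA8 was at 700.3 and 1064 CPM (log2 ratio -0.60 [-0.65, -0.56]). The mitochondrial pair lay on either side of 0, with HSPE1 at 185 and 143 CPM (0.38 [0.26, 0.49]) and HSPD1 at 262 and 342 CPM (-0.38 [-0.47, -0.30]). The log2 ratio of CRYAB exceeded the median of the other 6 genes by 2.14, and the median gene of the class was at 0.00.

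Several measures of these cells differed along with the genes. Muscle markers, of which 10 of 10 were above 0 in both libraries, summed to 1184 and 632 CPM. Muscle-like cells themselves held CRYAB at 907 and 468 CPM, below the meshwork-like cells of the same library. Stromal fibroblast markers, 12 of 12 above 0, summed to 13251 and 22623 CPM. Red blood cell markers summed to 729 CPM (0 of 5 at 0) and 209 CPM (3 of 5 at 0), and macrophage markers to 23.2 CPM (1 of 11 at 0) and 27.3 CPM (2 of 11 at 0). Their part in the results was not tested. Within equal bins of mitochondrial share the CRYAB log2 ratio was 1.59 below 2%, 1.59 from 2 to 5% and 1.01 from 5 to 10%, and that of DNAJB1 was -1.50, -2.23 and -2.24. HSPB1 was at -0.29 below 2% and at -1.17 from 2 to 5%. Within 4 bins of depth CRYAB lay between 1.22 and 1.74, and DNAJB1 between -2.24 and -1.07.

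**Figure D2:**
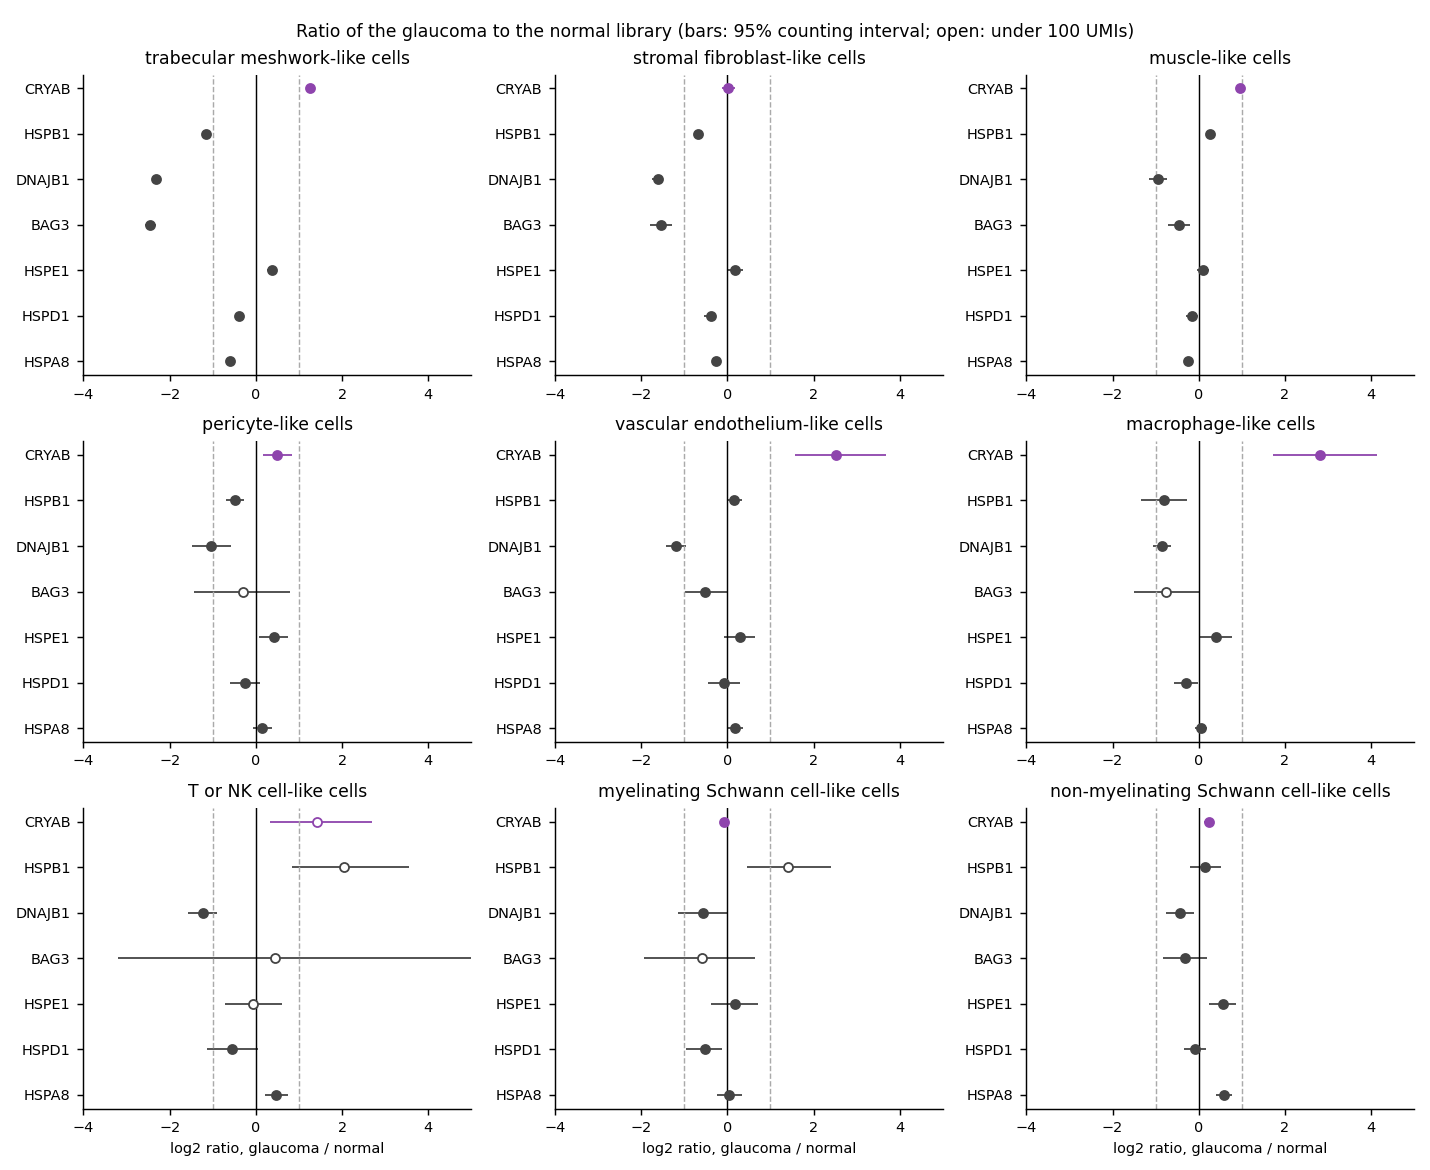
Log2 ratio of the glaucoma over the normal library (horizontal axis) for the 7 genes (vertical axis) in each of 9 cell classes. Bars are 95% counting intervals, open circles are genes with under 100 UMIs and dashed lines mark 2-fold. CRYAB (purple) lies to the right of the other 6 genes in meshwork-like cells (1.26), while DNAJB1 lies below 0 in every panel.

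The libraries drew their meshwork-like cells from different clusters. Cluster 2, led by CYTL1, CCK and CXCL14, held 934 glaucoma and 148 normal cells. Cluster 9, with PLA2G2A and KRT19 among its leading genes, held 171 and 528 cells. Cluster 10, with MGARP, WIF1 and BMP3, held 634 and 26 cells, and cluster 17 held 42 and 103. The CRYAB level differed more between clusters than between libraries: it was 7680 and 4663 CPM in cluster 2, 3119 and 1696 CPM in cluster 17, 2169 and 1548 CPM in cluster 9, and 1563 and 721 CPM in cluster 10. In each of the 4 clusters the glaucoma library was above the normal library, at log2 ratios of 0.72 [0.68, 0.76] in cluster 2, 0.49 [0.42, 0.55] in cluster 9, 1.12 [0.88, 1.36] in cluster 10 and 0.88 [0.65, 1.11] in cluster 17. When each cluster had the same weight in both libraries, the CRYAB ratio was 0.71 and was no longer called.

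HSPB1 stood at -0.04 under those weights and was no longer called either. It was highest in cluster 9 in both libraries, at 1425 and 1199 CPM, against 296 to 517 CPM in the other clusters. Its log2 ratio was 0.25 [0.17, 0.32] in cluster 9, -0.61 [-0.75, -0.46] in cluster 2, -0.47 [-0.79, -0.14] in cluster 10 and 0.35 [-0.28, 0.97] in cluster 17. DNAJB1 was below 0 in all 4 clusters, at -1.90 [-2.01, -1.79], -1.35 [-1.45, -1.26], -1.20 [-1.51, -0.88] and -0.88 [-4.16, 1.44] in clusters 2, 9, 10 and 17, the last from 2 and 8 UMIs. With the same cluster weights it stood at -1.52. BAG3 was at -1.75 [-2.02, -1.47], -0.91 [-1.09, -0.73] and -1.67 [-2.47, -0.78] in clusters 2, 9 and 10, had 4 UMIs in each library in cluster 17, and stood at -1.16 with the same weights. Those weights left 0 of 7 genes called higher and 2 lower, and the distance of CRYAB from the median of the other 6 at 1.02. HSPA8 was at -0.48, -0.27 and -0.13 in clusters 2, 9 and 10, and 0.36 in cluster 17. HSPE1 was above 0 in all 4 clusters, at 0.17, 0.17, 0.30 and 1.01, but each interval included 0.

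**Figure D3:**
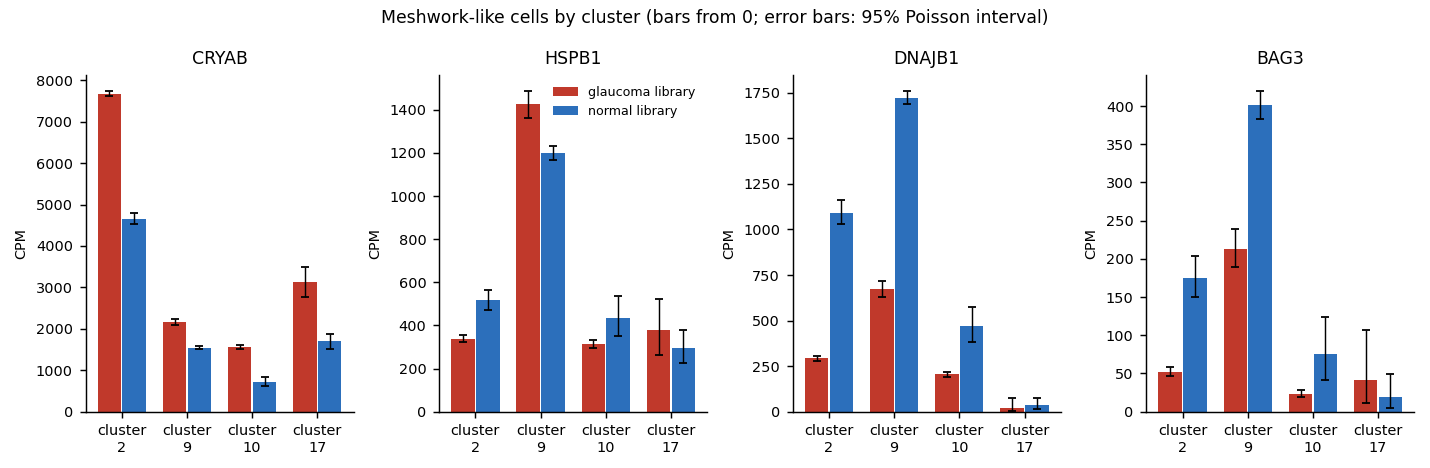
CPM of CRYAB, HSPB1, DNAJB1 and BAG3 (vertical axes from 0, with a scale of their own) in the 4 clusters of meshwork-like cells, for the glaucoma library (red) and the normal library (blue). Error bars are 95% Poisson intervals. CRYAB is highest in cluster 2 (7680 and 4663 CPM), whereas HSPB1, DNAJB1 and BAG3 are highest in cluster 9.

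Single meshwork-like cells were compared after 1000 UMIs had been drawn from each, which left 1764 glaucoma and 786 normal cells and set aside 17 and 19 shallower cells. At this depth 69.6% [67.4, 71.7] of glaucoma and 49.5% [45.9, 53.0] of normal cells held a CRYAB UMI. Without thinning the shares were 91.7% and 80.0%. Cells with 10 or more CRYAB UMIs made up 17.7% of the glaucoma and 4.83% of the normal cells, and the 10% of cells richest in CRYAB held 44.8% and 56.2% of all its UMIs. In macrophage-like cells, given for comparison, 6.59% and 1.35% held a CRYAB UMI after the same thinning.

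For DNAJB1 the order of the libraries was the opposite. A UMI was found in 19.6% of glaucoma and 52.9% of normal meshwork-like cells after thinning, and in 54.5% and 73.8% before it. BAG3 was found in 4.48% and 19.5% of thinned cells, and HSPB1 in 31.3% and 47.2%. HSPE1 (16.2% and 12.5%), HSPD1 (23.4% and 26.1%) and HSPA8 (46.2% and 56.2%) were closer.

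Single cells were then grouped by their own CRYAB UMIs. Thinned glaucoma cells with 0, 1 to 2, 3 to 5 and 6 or more CRYAB UMIs held a mean of 0.270, 0.253, 0.290 and 0.270 DNAJB1 UMIs. In the normal library the means were 1.31, 1.29, 1.11 and 1.03. Across cells, Pearson's r between CRYAB and the other 6 genes ran from -0.03 to 0.01 in the glaucoma library (1764 cells) and from -0.05 to 0.02 in the normal library (786 cells). Among the 15 pairs without CRYAB it ran from -0.01 to 0.12 and from -0.01 to 0.30, with DNAJB1 and HSPA8 as the highest pair in both libraries. Cells of 1 library share its depth and free RNA, and r in such sparse counts is given as a description only. The groups and r also pool the 4 clusters. In the normal library CRYAB ran from 721 to 4663 CPM and DNAJB1 from 38.8 to 1724 CPM over them. The part of these cluster differences in the values above was not tested.

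**Figure D4:**
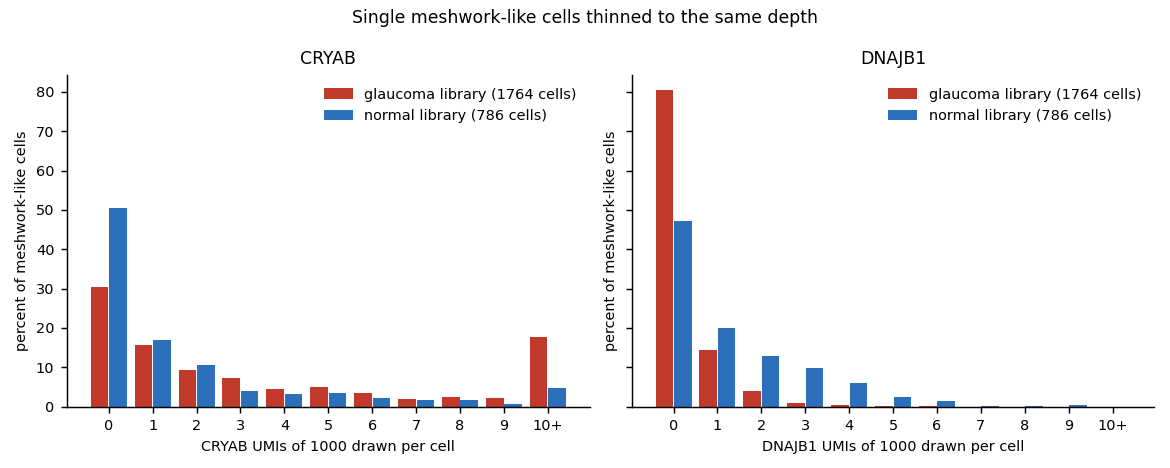
Percent of meshwork-like cells (vertical axis) by the number of CRYAB (left) or DNAJB1 (right) UMIs among 1000 drawn per cell (horizontal axis, 10 or more pooled), for 1764 glaucoma cells (red) and 786 normal cells (blue). CRYAB is absent from 30.4% of glaucoma and 50.5% of normal cells and reaches 10 or more in 17.7% and 4.83%, whereas most glaucoma cells hold no DNAJB1 UMI.

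Outside the meshwork, the ratio of CRYAB between the libraries depended on the class. It was called higher in vascular endothelium-like cells, at 90.1 and 15.7 CPM (157 and 9 UMIs; log2 ratio 2.52 [1.56, 3.68]), and in macrophage-like cells, at 69.4 and 9.97 CPM (183 and 7 UMIs; 2.80 [1.73, 4.13]). Both rest on levels under 2% of those in meshwork-like cells. With thinned cells they stood at 1.36 and 1.18, where too few UMIs were left for a call whatever the ratio. The separate draw used for single cells gave means of 0.0792 and 0.00917 CRYAB UMIs per vascular endothelium-like cell. Per macrophage-like cell it gave 0.0723 and 0.0135. Without thinning, 1 of 7 genes was higher in each class, against 1.79% of all genes in the vascular class and 3.48% in the macrophage class. In the macrophage class 0 of 7 were lower against 5.13%, and BAG3 was below the UMI minimum. In T or NK cell-like cells 47 and 8 UMIs gave 1.41 [0.32, 2.70], below the UMI minimum, and 1 normal barcode held 5 of the 8. Of the 7 genes 0 were called higher there, against 4.37% of all genes, but CRYAB, HSPB1, BAG3 and HSPE1 had too few UMIs for a call. Meshwork markers summed to 447 and 314 CPM in the vascular class (2 and 3 of 12 at 0), 455 and 322 CPM in the macrophage class (3 and 3 of 12 at 0) and 638 and 239 CPM in T or NK cell-like cells (2 and 9 of 12 at 0). Their part in the CRYAB ratios was not tested.

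In classes with higher CRYAB levels the values were different. In muscle-like cells CRYAB was at 907 and 468 CPM, a log2 ratio of 0.95 [0.87, 1.03] that lay between the limits. Meshwork markers summed to 3988 CPM (0 of 12 at 0) and 2102 CPM (2 of 12 at 0) in this class, and their part in the ratio was not tested. Within that class it was 0.84 [0.70, 0.97] in cluster 4, 0.12 [-0.00, 0.23] in cluster 8, which has the vascular muscle gene RERGL, and 1.54 [1.19, 1.90] in cluster 20, which has the meshwork genes MYOC, CCK and CYTL1 among its leading genes. Over 12 alternatives the muscle value ran from 0.50 with thinned cells to 1.07 when centred on the median gene, and 4 of them called it higher. Of the 7 genes 0 were called in muscle-like cells, where 3.21% of genes were higher and 3.6% lower, but 4 alternatives called DNAJB1 lower. Myelinating Schwann cell-like cells, the class with the most CRYAB, had 6509 and 6846 CPM (-0.07 [-0.15, -0.00]). Non-myelinating Schwann cell-like cells had 1451 and 1238 CPM (0.23 [0.11, 0.35]). In neither class was any of the 7 genes called, against 2.41% of genes higher and 3.81% lower in the myelinating class and 2.88% and 5.31% in the other. HSPB1 and BAG3 were below the UMI minimum in the myelinating class. In pericyte-like cells CRYAB had a log2 ratio of 0.50 [0.16, 0.84], which was 2.16 with doublets kept and 2.81 with a stricter filter on cells. Of the 7 genes 0 were called higher in that class, against 2.45% of all genes, and BAG3 was below the UMI minimum there.

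In stromal fibroblast-like cells the CRYAB levels of 181 and 179 CPM (0.02 [-0.13, 0.17]) held clusters that differed in opposite directions, and 0 of 7 genes were called higher against 1.88% of all genes. Cluster 0 was at 81.3 and 40.0 CPM (1.02 [0.62, 1.43]) and cluster 16 at 918 and 304 CPM (1.59 [1.27, 1.92]). Cluster 3, which has GPHA2, KRT19 and HAPLN1 among its leading genes, was at 171 and 292 CPM (-0.78 [-0.99, -0.56]). The value of the class also moved with the clustering, to 0.88 when the chaperone and immediate early genes were left out of it, 0.70 at a coarser resolution, 1.88 with doublets kept and 2.16 with the libraries clustered separately. Over all kept cells CRYAB stood at 2182 and 1039 CPM, a log2 ratio of 1.07 that also carries the different make-up of the libraries.

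DNAJB1 was called lower in the glaucoma library in 5 classes, more than any other of the 7 genes. Its log2 ratio was below 0 in 9 of 9 classes. HSPD1 was below 0 in as many classes, with an interval that excluded 0 in 5 of them. The interval of DNAJB1 excluded 0 in 8. Beside meshwork-like cells it was called lower in stromal fibroblast-like cells (197 and 602 CPM, -1.62 [-1.74, -1.49]), T or NK cell-like cells (307 and 721 CPM, -1.23 [-1.57, -0.89]), vascular endothelium-like cells (203 and 467 CPM, -1.20 [-1.43, -0.97]) and pericyte-like cells (79.5 and 163 CPM, -1.03 [-1.49, -0.59]). Muscle-like cells (83.9 and 162 CPM, -0.94) and macrophage-like cells (228 and 415 CPM, -0.86) lay just inside the limit, and the pericyte value just outside it: 7 of 11 alternatives called it lower, and the others gave -0.96 to -0.73. In the Schwann cell-like classes DNAJB1 was at -0.56 [-1.15, 0.01] in the myelinating class, with -1.20 to -0.06 over 11 alternatives, 2 of which called it lower. It was at -0.43 [-0.76, -0.11] in the non-myelinating class, with -0.55 to -0.05. All 102 values over the classes and alternatives were below 0. For HSPD1 99 of 102 and for BAG3 92 of 101 were below 0. Above 0 were 94 of 102 for CRYAB, 92 for HSPE1, 62 for HSPA8 and 55 for HSPB1. The alternatives process the same 2 libraries again, so these counts are not separate observations. In stromal fibroblast-like cells a stricter filter gave -0.72 for DNAJB1, which ended the call, and cluster 3 accounted for 2457 of its 3143 normal UMIs.

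BAG3 was called lower in 2 classes, meshwork-like cells and stromal fibroblast-like cells. The stromal levels were 42.9 and 125 CPM (-1.54 [-1.81, -1.27]), with -0.40 under the stricter filter and -0.55 at the coarser resolution, both outside the call. It was below 0 in muscle-like cells as well (-0.46 [-0.72, -0.22]) and vascular endothelium-like cells (-0.51 [-0.99, -0.01]), and in 4 classes it had too few UMIs. HSPB1 was called lower in meshwork-like cells alone of the 7 classes where it had at least 100 UMIs. It stood at -0.68 [-0.78, -0.57] in stromal fibroblast-like, -0.48 [-0.69, -0.27] in pericyte-like, 0.16 [-0.02, 0.35] in vascular endothelium-like and 0.25 [0.20, 0.31] in muscle-like cells. In macrophage-like cells it was at -0.82 [-1.34, -0.27], and 9 of 11 alternatives kept it below 0, 3 of them with a call. It was at 0.08 with doublets kept and 0.68 with thinned cells. The thinned value depended on the random draw: the draw used for single cells gave means of 0.0466 glaucoma and 0.0811 normal UMIs per cell. In all, 2 of 7 genes were called lower in the stromal class, against 4.74% of all genes. In pericyte-like, vascular endothelium-like and T or NK cell-like cells 1 of 7, DNAJB1, was lower, against 4.94%, 1.71% and 2.44% of all genes. Those shares count only genes with at least 100 UMIs, which BAG3 lacked in pericyte-like cells. In T or NK cell-like cells CRYAB, HSPB1, BAG3 and HSPE1 lacked them.

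HSPE1 and HSPD1 lay on opposite sides of 0 in 8 of 9 classes. The HSPE1 log2 ratio was above 0 in 8 of 9 classes, from 0.10 [-0.03, 0.24] in muscle-like to 0.55 [0.25, 0.87] in non-myelinating Schwann cell-like cells, with -0.07 in T or NK cell-like cells. The HSPD1 log2 ratio was below 0 in 9 of 9, from -0.56 to -0.08, and its interval excluded 0 in 5. When ratios were centred on the median gene of the class, HSPD1 in vascular endothelium-like cells moved from -0.08 to 0.01, and with the same weight for each cell to 0.15. HSPE1 in muscle-like cells was at -0.00 with thinned cells, and without the barcode with most UMIs it was at 0.03 in T or NK cell-like cells. Neither gene was called in any class. HSPA8 was below 0 in meshwork-like, stromal fibroblast-like (-0.27 [-0.35, -0.19]) and muscle-like cells (-0.25 [-0.33, -0.16]) and above 0 in the other 6 classes, up to 0.58 [0.39, 0.77] in non-myelinating Schwann cell-like cells, and was not called in any. In myelinating Schwann cell-like cells its 0.04 was below 0 under 4 alternatives.

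CRYAB had a log2 ratio above the median of the other 6 genes in 9 of 9 classes. The genes were chosen by their ratios in meshwork cells and the classes share the same 2 libraries, so this count is a description. The distance was 3.33 in macrophage-like and 2.48 in vascular endothelium-like cells, which rest on 7 and 9 normal CRYAB UMIs and fell to 1.14 and 1.20 at the lowest over the alternatives. It was 2.14 in meshwork-like (lowest 1.02), 1.15 in muscle-like, 0.78 in pericyte-like and 0.55 in stromal fibroblast-like cells. In T or NK cell-like cells it was 1.23, with CRYAB (8 normal UMIs), HSPB1, BAG3 and HSPE1 under the UMI minimum. In the myelinating and non-myelinating Schwann cell-like classes, both rich in CRYAB, it was 0.17 and 0.20, and in the myelinating class 1 of 11 alternatives gave a distance below 0 (-0.14). Taken singly, CRYAB was above 3 of the other 6 genes in the myelinating and 4 in the non-myelinating class. It was above 5 in stromal fibroblast-like and in T or NK cell-like cells, and above all 6 in the remaining classes. HSPB1 and BAG3 were under the UMI minimum in the myelinating class, and BAG3 in pericyte-like and macrophage-like cells.

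The wider chaperone system of meshwork-like cells was read from 9 lists of related genes. Values of these lists, and of the 2 further lists below, are pooled over the clusters of a class. The alternatives, same cluster weights included, were run for the 7 genes only, so the part of cluster make-up in the list values was not tested. Beyond the 7 genes, 83 were measured, of which 3 (3.61%) were called higher and 5 (6.02%) lower, with a median log2 ratio of 0.04. Over all genes of the class these shares were 6.01% and 5.73%, against which the counts of every list below are to be read. Small heat shock proteins had 4 measured members, of which CRYAB was higher and 2 lower. HSPB8, which works with BAG3, was at 38.8 and 88.1 CPM (log2 ratio -1.18) and lower, and HSPB6 was at 114 and 216 CPM (-0.93 [-1.04, -0.81]).

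Among partners of HSP70 proteins, HSPH1 (HSP110), an exchange factor, was lower at 30.4 and 83.1 CPM (-1.45 [-1.66, -1.25]), HSPA2 was lower (-1.51 [-2.12, -0.91]), and the exchange factor gene HSPBP1 was the highest of its list at 1.00 [0.67, 1.33], between the limits. That list had 0 of 10 members higher and 2 lower, with a median of -0.29. Of 16 J-domain genes 0 were higher and 2 lower, DNAJB1 and DNAJA4 (9.76 and 24.8 CPM, -1.35 [-1.72, -0.98]), with a median of 0.08 and DNAJB12 highest at 0.86. In the BAG and autophagy list BAG3 was the 1 gene called of 12 (median -0.12), and the ubiquitin ligase gene STUB1 was highest at 0.52.

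Other branches showed few calls. The HSP90 system had 0 of 9 members called (median 0.13), from FKBP5 (-0.87) to FKBP4 (0.69). Of 8 mitochondrial chaperones and proteases 0 were called (median 0.16), from YME1L1 (-0.71) to CLPP (0.43). In the cytosolic chaperonin list 2 of 13 were higher, PFDN5 (121 and 31.9 CPM, 1.93 [1.71, 2.15]) and PFDN2 (220 and 110 CPM, 1.00 [0.88, 1.13]), both of prefoldin, which delivers actin and tubulin. Its median was 0.28 and CCT6A was lowest at -0.19. Endoplasmic reticulum chaperones had 1 of 16 higher, SDF2L1 (1.44 [1.06, 1.83]), and 1 lower, the transcription factor gene XBP1 (-1.07 [-1.34, -0.81]), with a median of -0.09. HSF1 was at 39.8 and 33.6 CPM (0.24 [-0.00, 0.49]), and 0 of 4 heat shock transcription factor genes were called, with HSF4 lowest at -0.41. The inducible HSP70 genes HSPA1A and HSPA1B and the HSP90 gene HSP90AA1 were not analysed here.

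Immediate early genes, which cells switch on within minutes of a stimulus, tissue dissociation included, were lower as a group alongside DNAJB1 and BAG3. Of 19 measured, 1 was higher and 10 lower in meshwork-like cells of the glaucoma library, with a median log2 ratio of -1.41. NR4A3 was lowest (16.8 and 142 CPM, -3.08), followed by EGR1 (535 and 2161 CPM, -2.01), EGR2 (-1.84) and KLF4 (-1.82), and JUND was the gene called higher (1.15). In stromal fibroblast-like cells 10 of 18 were lower (median -1.18), against 4.74% of all genes. The other classes had fewer measured genes and fewer calls, given here with the percentage of all genes called lower and the list median. Counts were 2 of 16 lower in muscle-like (3.6%, -0.44) and 2 of 16 in macrophage-like cells (5.13%, -0.10). They were 2 of 6 in pericyte-like (4.94%, -0.50), 2 of 9 in vascular endothelium-like (1.71%, -0.59) and 1 of 5 in T or NK cell-like cells (2.44%, -0.38). In Schwann cell-like cells they were 2 of 8 in the myelinating (3.81%, -0.72) and 2 of 7 in the non-myelinating class (5.31%, -0.55). The part of this difference in the DNAJB1 and BAG3 ratios was not tested. Of 8 intermediate filament and other CRYAB client genes, 3 were higher, NES (1.40), DES (1.30) and TTN (1.19), SYNM was lower (-1.08), and the median was -0.04. DES, a muscle filament gene, was also called higher in 5 other classes, from 1.11 in non-myelinating Schwann cell-like to 1.87 in macrophage-like cells. The muscle markers of meshwork-like cells, 1184 and 632 CPM, differed in the same direction, and their part in the DES ratio was not tested. VIM, the main filament gene of these cells, was at 3194 and 3569 CPM (-0.16 [-0.18, -0.14]).

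**Figure D5:**
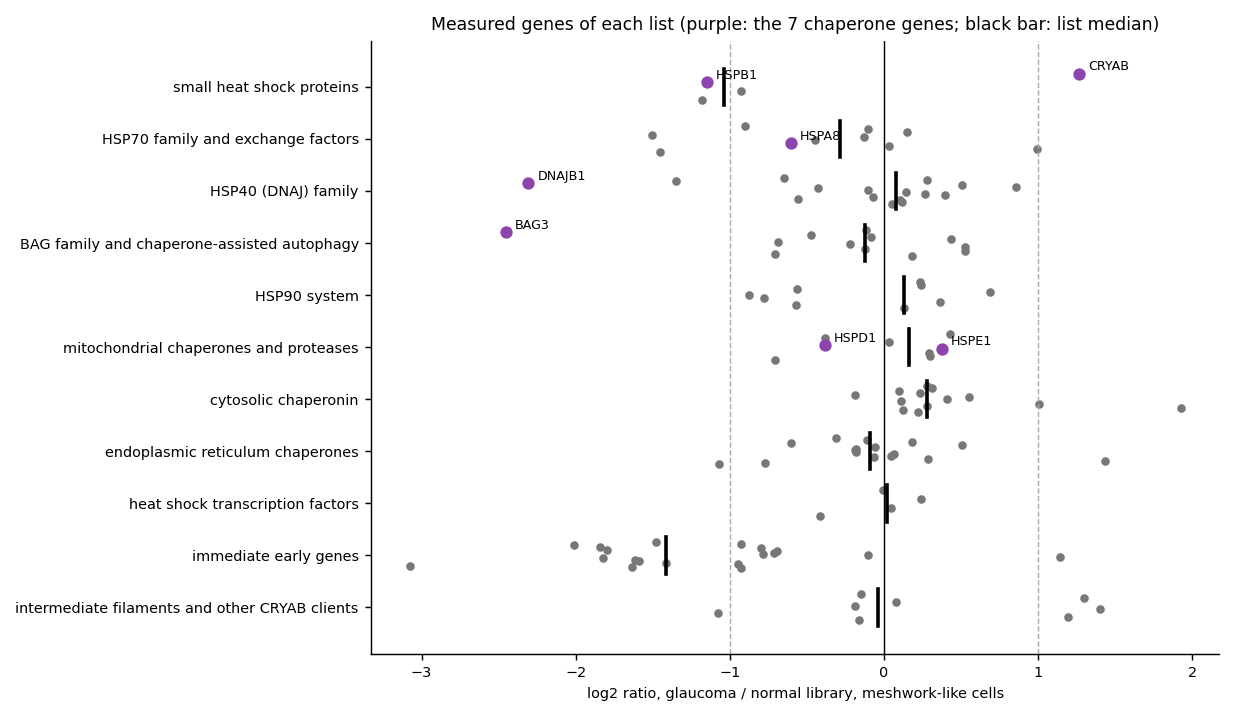
Log2 ratio of the glaucoma over the normal library in meshwork-like cells (horizontal axis) for every measured gene of 11 lists (vertical axis); purple points are the 7 genes, grey points the others, black bars list medians and dashed lines 2-fold. CRYAB (1.26) stands apart from the other small heat shock genes (-0.93 to -1.18), and the immediate early list has the lowest median (-1.41).

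Across the 18 sums of 9 classes in 2 libraries, the genes whose log2(CPM + 10) was most like that of CRYAB, among 5512 genes with at least 1000 UMIs, included ID4 (Pearson's r = 0.94), ME1 (0.87), GASK1A (0.87), ZBTB47 (0.86), POLR2I (0.85), LRRC4C (0.85) and BAD (0.84). Of these, ID4, ME1, GASK1A, ZBTB47 and LRRC4C had their highest level in myelinating Schwann cell-like cells, as CRYAB did. Those most like DNAJB1 were NFKBIZ (0.90), CCNL1 (0.81), ITPR2 (0.80), IRF1 (0.76), RIPK1 (0.75), ZNF217 (0.75), BRD2 (0.73) and RUNX2 (0.73). Neither group held another of the 7 genes. Within the 7, HSPA8 had an r of 0.68 with DNAJB1, HSPD1 an r of 0.63 with CRYAB, and CRYAB with DNAJB1 an r of -0.30. The sums share 2 libraries and their free RNA, so these values are descriptions.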

How the data were processed

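Raw counts of UMIs per gene and barcode were deposited by the authors, 1 matrix per library, without normalization. The file headers name Cell Ranger 6.0.0, whereas the submitters' processing notes list Cell Ranger 4.0 and Seurat 3.0. The genome build, the annotation and the rule that chose the barcodes are not given in the sources used here. Of 24037 features, 15580 had a symbol in the files and 873 took one from a table of gene names.

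Cells with at least 500 genes and under 20% mitochondrial UMIs (13 genes) were kept, less 332 glaucoma and 66 normal barcodes that Scrublet marked as doublets (each library alone, expected rate 0.8% per 1000 cells). Both libraries were clustered together with scanpy 1.11.5 and igraph 0.11.9 (Python 3.11.15, seed 1): 10000 UMIs per cell, log scale, 2000 variable genes, 30 principal components, 15 neighbours and Leiden resolution 1. Clusters took the class with most markers of 19 sets, if at least 3 counted. They stayed unnamed where another class had more of the 10 leading genes or the depth was very low. Because the clustering used all variable genes, a class compared with the rest is a description.

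For each class, UMIs were summed over cells and scaled to CPM by the total of that class. Exact Poisson intervals were added. Ratios have exact conditional binomial (Clopper-Pearson) intervals and shares of cells exact binomial ones. With 1 library per group no test was run. Genes with under 100 UMIs over both libraries in a class were not called. The ratio and interval code was tested on simulated data.

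The 7 genes, the 11 lists and the marker sets were chosen with earlier results of these data known. Named were the 7 genes in every class, up to 4 called genes of each list in meshwork-like cells with its highest and lowest gene, and the 8 genes most like CRYAB and DNAJB1, of which 1 is not reported here. A few others, such as HSPB6, HSF1 and VIM, were added after their values were seen. Alternatives, 12 in all and run for the 7 genes only, covered cell filters, doublets, clustering, cluster weights, depth, single barcodes and scaling.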

Additional observations from a re-analysis of the deposited data

Results flagged for a closer look

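CRYAB was called higher in the glaucoma library in meshwork-like, vascular endothelium-like and macrophage-like cells, but stood at a log2 ratio of -0.073 in myelinating Schwann cell-like cells, whose counting interval lay below 0. That value changed sign under 3 of 11 alternatives. HSPB1 was called lower in meshwork-like cells and stood at 0.25 in muscle-like cells, with an interval above 0. With the same cluster weights in both libraries the meshwork value was -0.04 and was no longer called. Cluster 3 of stromal fibroblast-like cells had a CRYAB log2 ratio of -0.78, opposite to clusters 0 (1.02) and 16 (1.59) of the same class. With 1 library per group these differences between classes and clusters were not tested.

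Barcodes left out for a mitochondrial share of 20% or more also differed between the libraries, 1366 in the glaucoma and 911 in the normal library. CRYAB stood at 441 and 158 CPM in them, a log2 ratio of 1.48 [1.33, 1.64], and HSPB1 at 1508 and 556 CPM, a log2 ratio of 1.44 [1.36, 1.52]. When every barcode was clustered, 85.7% and 77.1% of them were muscle-like. Muscle markers summed to 18489 and 13610 CPM in these barcodes. Over all muscle-like cells of that clustering the HSPB1 log2 ratio was 0.50 and that of CRYAB 0.60.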

How the results depend on the processing

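Every alternative kept CRYAB above 0 and DNAJB1 below 0 in meshwork-like cells, and the cause of each shift below was not tested. The largest shift came from the same cluster weights in both libraries, with CRYAB at 0.71, HSPB1 at -0.04, DNAJB1 at -1.52, the distance of CRYAB from the median of the other 6 genes at 1.02, 0 genes called higher instead of 1, and 7 calls in the 4 classes that have more than 1 cluster with at least 10 cells in each library. Without those weights the same 4 classes had 8 calls, and all 9 classes had 11. Of those 8 calls 6 held: CRYAB and HSPB1 in meshwork-like cells were lost, and DNAJB1 in muscle-like cells (-1.27) was gained. CRYAB stood at 1.18 with doublets kept, 1.16 under a stricter filter (1000 genes, 10% mitochondrial UMIs), 1.20 with separate clustering, 1.04 at resolution 0.5, 1.31 with thinned cells, 1.31 without the barcode with most UMIs, 1.30 with the same weight for each cell and 1.31 with mitochondrial, ribosomal and haemoglobin genes left out of the total. DNAJB1 stood at -2.24 with doublets kept, -2.20 over every barcode, -2.12 with thinned cells and -2.15 with the same weight for each cell. The distance was 2.04 with doublets kept, 2.01 under the stricter filter, 1.999 with separate clustering, 1.92 at resolution 0.5, 2.18 without the barcode with most UMIs and 2.06 with the same weight for each cell. The other settings ran from 10 to 16 calls over all classes, totals that include calls gained. Of the 11 main calls 8 held with thinned cells. The stricter filter held 7 of the 10 in the classes it left, and each remaining setting held 10 or 11 of the 11. Median genes at -0.13 in stromal fibroblast-like, -0.12 in muscle-like and 0.16 in T or NK cell-like cells shift those classes by over 0.1, and centring raised CRYAB in muscle-like cells to 1.07. T or NK cell-like cells gave no value under the stricter filter, which left too few. No paired analysis was possible because each group has 1 library. Depth limits BAG3, under 100 UMIs in 4 classes, and CRYAB in macrophage-like and vascular endothelium-like cells, with 7 and 9 normal UMIs.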

Other observations

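FKBP5 and PFDN5, chosen after their values were seen, differed in the same direction in several classes. FKBP5, a partner of HSP90 that glucocorticoids are known to induce, was lower in the glaucoma library in 4 of the 6 classes where it had at least 100 UMIs. It stood at 35.9 and 105 CPM in pericyte-like cells (log2 ratio -1.55 [-2.22, -0.92]), at 71.7 and 197 CPM in macrophage-like cells (-1.46 [-1.78, -1.13]), at 31.3 and 75.9 CPM in muscle-like cells (-1.28 [-1.61, -0.95]) and at 119 and 244 CPM in T or NK cell-like cells (-1.04 [-1.61, -0.46]). In meshwork-like and stromal fibroblast-like cells it was at -0.87 in both, between the limits. PFDN5, a subunit of prefoldin, was higher in all 6 classes where it was measured, from 1.37 [1.06, 1.69] in muscle-like to 1.93 [1.71, 2.15] in meshwork-like cells. Of all genes, 2.44% to 5.73% were called lower in the 6 classes of FKBP5, and 1.79% to 6.01% higher in those of PFDN5. The classes share the same 2 libraries, so both counts over classes are descriptions. No alternative was run for these genes.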
